A study of Mus musculus with 4 samples.

Results

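The genes described here encode 10 subunits of cohesin and condensin, the ring-shaped complexes that hold and fold chromosomes. They were taken from the deposited count table by symbol, and all 10 were found among its 47937 genes. The 5 cohesin genes were Smc1a, Smc3, Rad21, Stag1 and Stag2, and the 5 condensin genes were Smc2, Smc4, Ncapd2, Ncaph and Ncapg. Their RNA was measured in mouse embryonic fibroblasts (MEF cells, connective tissue cells grown from mouse embryos) by total RNA sequencing. Untreated wild-type cells gave 2 libraries. Cells kept in genistein, a plant isoflavone, at 50 µM for 24 h gave the other 2. Both groups were MEF cells kept in the same medium, and no vehicle is named for the untreated cells in the labels. In other assays of the study untreated cells received DMSO alone, but this is not stated for the sequenced libraries. The genotype field of the genistein libraries holds the treatment, so their genotype is not stated there. The labels number the replicates but do not say whether they were separate cultures, so the p-values measure only the spread between these libraries, which may be technical.

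Cohesin and condensin are built alike. Each has a pair of long coiled-coil ATPases of the SMC family, joined at one end by a kleisin subunit that closes the ring. Cohesin (Smc1a and Smc3, closed by Rad21) holds sister chromatids together from S phase to anaphase and extrudes chromatin loops in interphase. It carries either Stag1 or Stag2, related subunits that take the same place on the ring. Condensin (Smc2 and Smc4) compacts chromosomes for mitosis. In condensin I the kleisin is Ncaph, with the HEAT-repeat subunits Ncapd2 and Ncapg. Smc2 and Smc4 also serve condensin II, which has its own kleisin and HEAT subunits. In dividing cells such as cultured fibroblasts, RNA of condensin I subunits is known to peak towards mitosis.

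Total counts over genes and repeats ran from 28591958 to 31464284 per library. Raw counts of the 10 genes lay between 1048 and 11481 in every library, so all 10 passed the filter on low counts. Of 8 fibroblast markers, 7 were well above the filter, and Thy1 had no count in any library. Summed over the fibroblast list, normalised counts were 273962 and 277492 without genistein and 225518 and 220737 with it. All 7 tested markers were lower by the test given below, which called 38.2% of all tested genes lower and 33.5% higher. Epithelial markers summed to 1163 and 1130 against 251 and 231, with Epcam at 0 throughout and all 3 tested markers lower. Macrophage markers summed to 209.8 and 191.6 against 546 and 569.9, nearly all of it Csf1r and Cd68, with Adgre1 at 0 and Ptprc at 0 or 1 count. Csf1r and Cd68 were the only macrophage markers tested, and both were higher. Muscle markers summed to 37.0 and 29.6 against 284 and 264, nearly all of it Des, with Myod1 and Myf5 at 0. Des was the only muscle marker tested and was higher. Endothelial markers summed to 24.97 and 30.7 against 85.3 and 97.2, most of it Kdr, with Cdh5 at 1 count in 1 library. Kdr was the only endothelial marker tested and was higher. The part of these markers in the results below was not tested. In bulk RNA, fewer cells of a kind and less RNA per cell cannot be told apart.

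The stretches upstream of 4 genes are shown: Stag1 fell furthest, Ncapd2 rose, and Smc2 and Ncapg fell with most of the group. All of them hold motifs described below. Smc3, which fell second furthest, holds none and is not shown, so the stretches do not stand for the whole group. Sequences are those of RefSeq on GRCm38.p6, 5′ to 3′ on the strand of the gene, and cover bases that no annotated exon holds. The Stag1 stretch is chr9:100643298-100643447 (plus strand), directly before the RefSeq start, which lies inside the longer gene given below. The Smc2 stretch is chr4:52439071-52439220 (plus strand). The Ncapg stretch is chr5:45669769-45669918 (plus strand), and that of Ncapd2 is chr6:125191702-125191800 (minus strand), from 214 to 116 bases before its start. A further CCAAT box and the E2F-type letters of Ncapd2 lie nearer the start and the CCAAT box of Ncapg lies further out, so these are not in the stretches shown. Capitals mark 3 short motifs searched on both strands, none of which overlapped another here: the CCAAT box (CCAAT), the cell cycle homology region or CHR (TTTGAA), and an E2F-type site (TTTNNCGC).
Stag1: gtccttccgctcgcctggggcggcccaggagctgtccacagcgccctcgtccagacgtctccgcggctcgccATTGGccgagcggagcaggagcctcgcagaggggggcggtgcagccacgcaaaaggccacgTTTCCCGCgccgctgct
Ncapd2: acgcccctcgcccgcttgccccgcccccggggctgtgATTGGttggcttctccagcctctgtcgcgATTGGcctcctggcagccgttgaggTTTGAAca
Smc2: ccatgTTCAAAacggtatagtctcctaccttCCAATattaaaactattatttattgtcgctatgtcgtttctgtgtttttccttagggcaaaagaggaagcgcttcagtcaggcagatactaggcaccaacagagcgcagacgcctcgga
Ncapg: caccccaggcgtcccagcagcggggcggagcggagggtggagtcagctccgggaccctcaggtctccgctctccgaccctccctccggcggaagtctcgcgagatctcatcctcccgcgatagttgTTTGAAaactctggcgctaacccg

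Of the 10 genes, 7 had a RefSeq promoter entry, and the 250 bases before the start were searched. A CCAAT box was found in 5 of the 7, namely Smc1a, Stag1, Smc2, Ncapd2 and Ncapg, against 33.8% of 32851 promoters. The CHR letters were found in Smc2, Ncapd2 and Ncapg, all condensin genes, against 16% of promoters. The E2F-type letters were found in Stag1 and Ncapd2, against 4.28%. Smc3 and Ncaph had none of the 3. Ncapd2 had all 3 kinds. A match is only a run of letters, and Smc4, Rad21 and Stag2 were not searched.

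The comparison of genistein with untreated cells asked how the RNA of each subunit responded. With genistein, 8 of the 10 genes were lower, Ncapd2 was higher, and Stag2 did not pass the test (adjusted p-value under 0.05 in the quasi-likelihood test of edgeR, Benjamini-Hochberg adjustment across the kept genes and repeats). Among all 16240 genes tested, 38.2% were lower and 33.5% higher by the same rule. The median log2 fold change was -0.33 over the cohesin genes and -0.32 over the condensin genes, against -0.03 over all genes. The quartiles of all tested genes were -0.43 and 0.44, so both medians lay within the middle range of all genes. Stag1, Smc3, Smc2 and Smc4 lay below the lower quartile, and the other members lay between the quartiles. The split depended a little on the scaling: with library totals, or with factors from genes alone, 7 were lower and 2 higher. Among all tested genes, 5530 were then lower and 6085 higher with library totals. With factors from genes alone these were 5815 and 5867. Stag1 alone also passed a log2 fold change of 1 in either direction with a mean normalised count over 100, a rule that 4.16% of genes passed as lower and 3.92% as higher. Both genistein libraries lay below both untreated ones in 8 of the 10 genes and above them in 2, against 44.6% and 40.7% of all tested genes. Coordinates below are those of GRCm38.

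**Figure D1:**
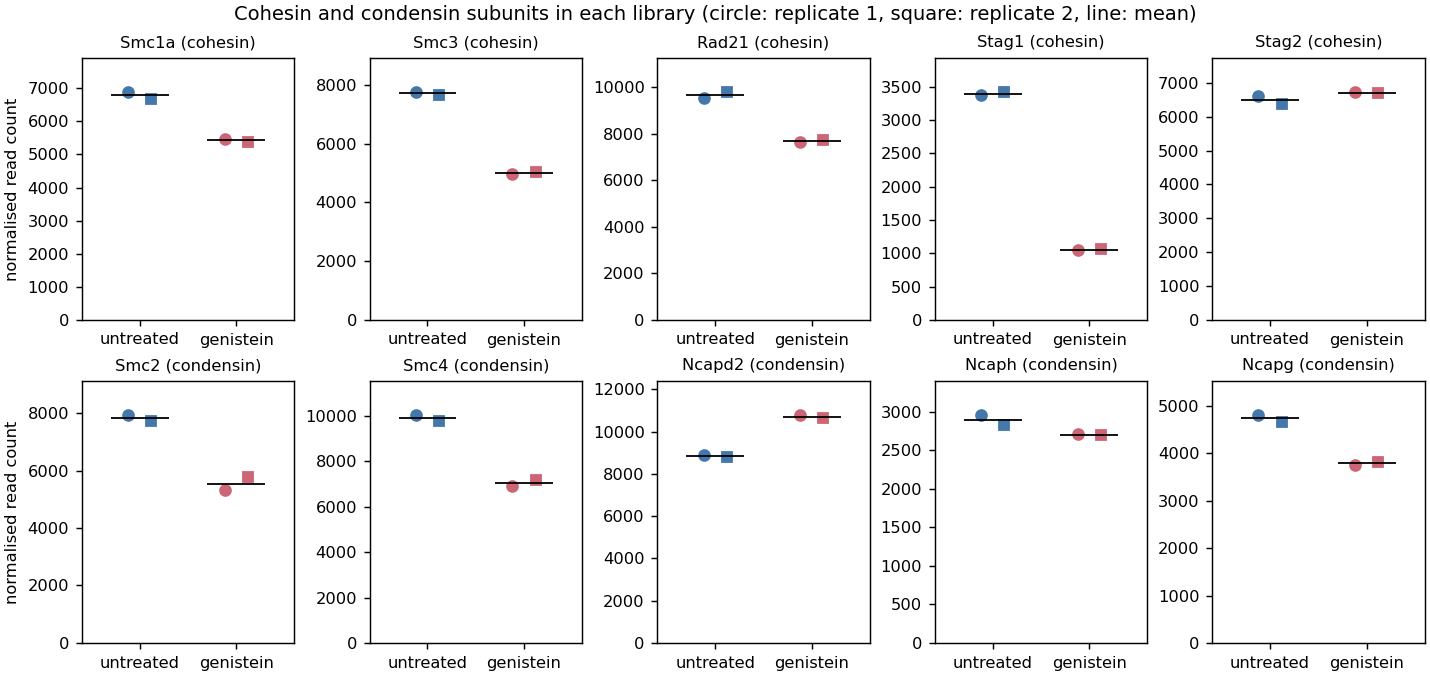
Normalised read counts of the 10 genes in each library (y axes start at 0, circles and squares are replicates 1 and 2, lines are group means). The groups lie apart for every gene, most widely for Stag1, and only Ncapd2 and Stag2 have the genistein libraries on top.

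Stag1 (chromosome 9, 100597798 to 100959375), one of the interchangeable cohesin subunits, changed most. Without genistein it had normalised read counts of 3372 and 3416, and with genistein 1051 and 1061. Both genistein libraries lay far below both untreated ones, and replicates of a group differed little. This was a log2 fold change of -1.68 (SE 0.04, adjusted p = 3.5e-15, edgeR), a 3.21-fold lower level, and 1.29% of tested genes had a lower log2 fold change.

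Stag2 (chromosome X, 42149317 to 42277185), the other subunit of that place, had 6610 and 6373 normalised counts without genistein and 6726 and 6690 with it. The groups did not overlap, but the gap between them was smaller than the gap between the untreated libraries. This was a log2 fold change of 0.05 (SE 0.03, adjusted p = 0.233, edgeR). It was 0.12 with library totals and 0.09 with factors from genes alone, and passed the test under both.

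The ATPase Smc3 (chromosome 19, 53600398 to 53645833) went from 7750 and 7671 to 4949 and 5027 normalised counts. This was a log2 fold change of -0.63 (SE 0.03, adjusted p = 4.5e-11, edgeR), 35.3% below the untreated level. Its partner Smc1a (chromosome X, 152016428 to 152062694) went from 6883 and 6692 to 5479 and 5384, a log2 fold change of -0.32 (SE 0.03, adjusted p = 1.4e-07, edgeR). The fold change of Smc3 was the larger of the pair, and their ratio is given below. The kleisin Rad21 (chromosome 15, 51962240 to 51991747), which separase cuts at anaphase, went from 9542 and 9778 to 7654 and 7705. This was a log2 fold change of -0.33 (SE 0.04, adjusted p = 1.7e-06, edgeR). In all 3 of these cohesin genes every genistein library lay below every untreated library, as in 44.6% of all tested genes.

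Both condensin ATPases fell by nearly the same amount. Smc2 (chromosome 4, 52439243 to 52488260) had 7923 and 7737 normalised counts in untreated cells and 5328 and 5759 with genistein, a log2 fold change of -0.50 (SE 0.04, adjusted p = 1.0e-08, edgeR). Smc4 (chromosome 3, 69004738 to 69034623) had 10021 and 9788 against 6913 and 7175, a log2 fold change of -0.49 (SE 0.04, adjusted p = 1.8e-08, edgeR). The genistein replicates of Smc2 were the widest apart of the 10 genes.

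The condensin I subunits did not move together. Ncapg (chromosome 5, 45669919 to 45700546), whose upstream stretch above holds the CHR letters close to its start, went from 4804 and 4670 to 3753 and 3822 normalised counts. This was a log2 fold change of -0.32 (SE 0.03, adjusted p = 2.2e-07, edgeR). Of its annotated exons, 13.4% overlap Lcorl on the other strand, whose raw counts were 808 and 802 in untreated and 987 and 883 in genistein libraries. The kleisin Ncaph (chromosome 2, 127103809 to 127133954) had 2955 and 2825 normalised counts against 2708 and 2695. Its log2 fold change of -0.10 (adjusted p = 0.027, edgeR) was the smallest to pass. The call was lost without untreated 1 (-0.07), without genistein 1 (-0.10) and without genistein 2 (-0.09), as well as with library totals (-0.03), with factors from genes alone (-0.05) and with DESeq2 (-0.11).

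Ncapd2 (chromosome 6, 125168007 to 125191701), the HEAT subunit with all 3 motifs, was higher with genistein. Its normalised counts were 8890 and 8779 without genistein and 10766 and 10626 with it. This was a log2 fold change of 0.28 (SE 0.04, adjusted p = 2.0e-05, edgeR). Scarna10, a small Cajal body RNA gene, lies on the same strand within annotated Ncapd2 exons over 237 bp, and its raw counts were 1901 and 1847 in untreated and 3329 and 3219 in genistein libraries. When the Scarna10 counts were subtracted, a step chosen after seeing the data, Ncapd2 had 6991 and 6823 normalised counts against 7644 and 7368. The log2 fold change was then 0.12 (SE 0.04, adjusted p = 0.0095, edgeR), less than the value above by more than 1.5 times but still past the test. How the counter split reads between these genes is not given in the sources used here.

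**Figure D2:**
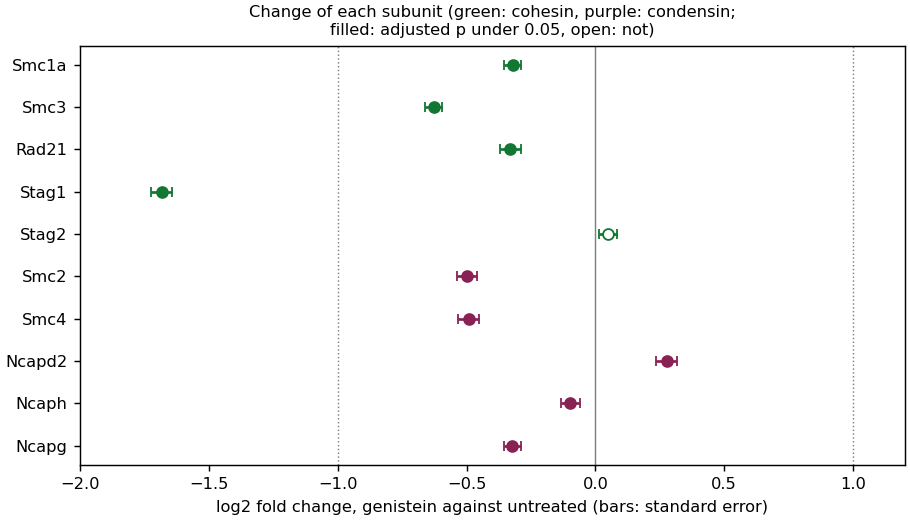
Log2 fold change of each gene with genistein (x axis, bars are standard errors; green is cohesin, purple condensin, filled points passed an adjusted p of 0.05 and dotted lines mark a log2 fold change of 1). Stag1 at -1.68 stands outside the dotted lines, 7 other genes lie between -0.63 and -0.10, and Ncapd2 is at 0.28.

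Levels of different genes were then compared per length, as RPKM, reads per kilobase of annotated exon scaled to library size. In untreated cells Rad21 was highest at 76.3 ± 1.32 (SD, n = 2), followed by Smc4 at 63.6 ± 1.06. Smc2 at 47.8 ± 0.80, Ncapd2 at 47.1 ± 0.42 and Smc3 at 46.5 ± 0.34 came next. Smc2 and Ncapd2 did not differ beyond their spread, and neither did Ncaph and Ncapg, which both stood at 22.4. Stag1 was lowest at 9.63 ± 0.09. In genistein cells Rad21 stayed first at 60.7 ± 0.28, Ncapd2 came second at 57.1 ± 0.53, and Stag1 stayed last at 2.996 ± 0.02. The place of Ncapd2 in both groups changed when the Scarna10 counts were subtracted. With the exon length kept, Ncapd2 then stood at 36.8 ± 0.63 in untreated cells, below Smc1a at 39.3 ± 0.78, and at 40.04 ± 1.04 in genistein cells, below Smc4 at 45.2 ± 1.19. With the counts as deposited, the ranges of neighbouring genes in the genistein order were apart in every case.

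**Figure D3:**
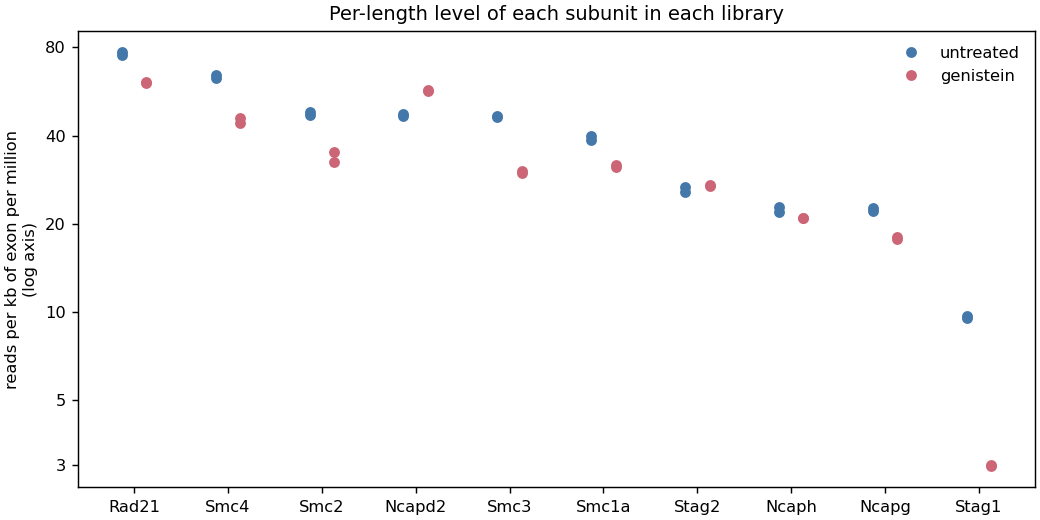
Per-length level (RPKM, log axis) of each gene in the 2 untreated and 2 genistein libraries, ordered by the untreated mean. Rad21 is highest in both groups and Stag1 lowest in both, while Ncapd2 lies above Smc4 in genistein cells. Counts are as deposited. With the Scarna10 counts subtracted, which is not drawn, Ncapd2 was below Smc4 in genistein cells (40.04 against 45.2).

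Ratios within a library do not depend on how libraries are scaled, and 5 were computed. Per length, Stag1 stood at 0.358 and 0.376 of Stag2 in the untreated libraries and at 0.110 and 0.111 in the genistein libraries. The log2 ratio differed by -1.73, far more than the spread within a group (SD 0.05 and 0.01, n = 2; exact two-sided permutation p = 0.33, the smallest that 2 against 2 libraries allow). Smc3 to Smc1a went from 1.17 and 1.19 to 0.940 and 0.972, a log2 difference of -0.31. Smc2 to Smc4 was 0.752 and 0.752 against 0.733 and 0.763, so that the groups overlapped (exact permutation p = 1). The summed condensin genes relative to the summed cohesin genes went from 1.04 and 1.02 to 1.14 and 1.16, a log2 difference of 0.16. With the Scarna10 counts subtracted from Ncapd2 the ratios were 0.986 and 0.963 against 1.03 and 1.05, a log2 difference of 0.09, smaller by more than 1.5 times. The condensin II subunits (Ncapd3, Ncaph2 and Ncapg2) relative to the condensin I subunits (Ncapd2, Ncaph and Ncapg) went from 0.812 and 0.798 to 0.628 and 0.640, a log2 difference of -0.34. With the same subtraction these were 0.911 and 0.902 against 0.760 and 0.782, a log2 difference of -0.23. The groups did not overlap in either ratio after subtraction. In 4 of the 5 ratios the groups did not overlap, each with the same exact p = 0.33, so with adjustment over the 5 none passed.

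**Figure D4:**
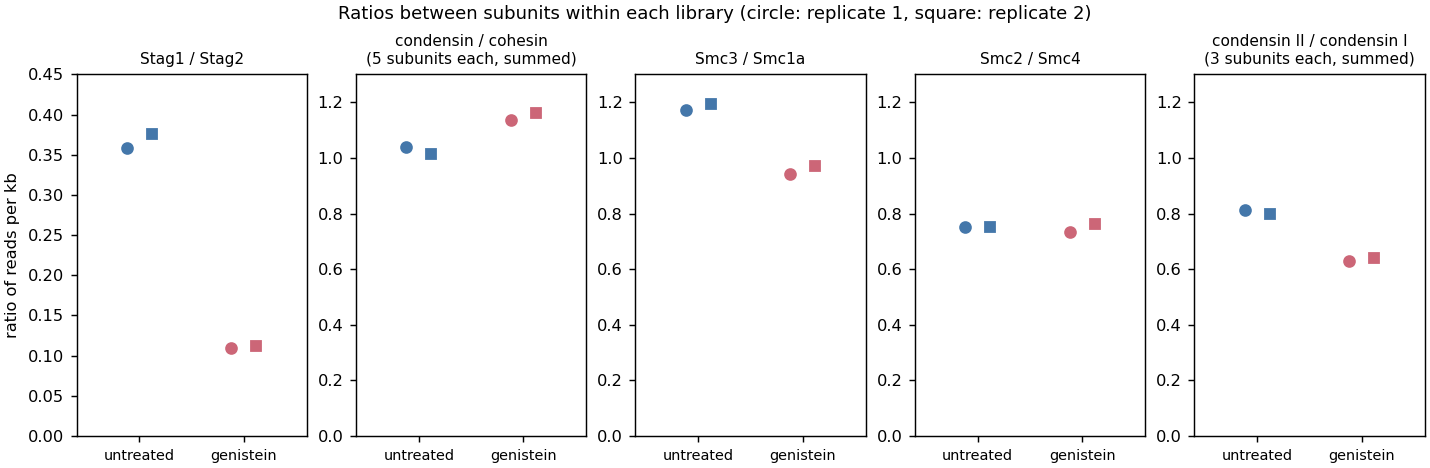
Ratio of per-length reads between subunits in each library (y axes start at 0, circles and squares are replicates 1 and 2). Stag1 to Stag2 is near 0.36 to 0.38 without and 0.11 with genistein, whereas Smc2 to Smc4 overlaps between groups.

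The genes that load, release, lock and cut these complexes, and the related complexes, were followed in 7 lists. Of 33 genes 30 were tested, and 17 were lower, 6 higher and 7 neither, with a median log2 fold change of -0.21, against 38.2% of all tested genes lower, 33.5% higher and a median of -0.03. All 3 condensin II subunits were lower, with log2 fold changes of -0.39 for Ncapg2, -0.32 for Ncapd3 and -0.24 for Ncaph2.

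In the loading and release list 4 of 6 genes were lower and 2 higher, where 38.2% and 33.5% of all tested genes were. The share of higher genes in this list was thus near that of all genes. Ctcf, the zinc finger protein at which loop extrusion by cohesin halts, had 4475 and 4388 normalised counts without genistein and 1873 and 1917 with it. Its log2 fold change of -1.23 (SE 0.04, adjusted p = 4.8e-14, edgeR) was the only one of the 30 to pass the fold rule. Pds5a, Wapl and Pds5b, which bind cohesin on chromatin and govern its release, had log2 fold changes of -0.51, -0.33 and -0.14, and Pds5b lost its call with library totals (-0.07). The loader pair went the other way. Nipbl had 6478 and 6726 normalised counts without genistein and 7636 and 7515 with it (log2 fold change 0.20, adjusted p = 0.00016, edgeR), and Mau2 had 2015 and 1886 against 2362 and 2309 (0.26, adjusted p = 3.7e-05, edgeR).

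Of 7 genes that establish cohesion, 4 were lower and 1 higher, against 38.2% and 33.5% of all tested genes. The lower ones were the helicase Ddx11 at -0.60, the clamp loader subunits Chtf18 at -0.42 and Dscc1 at -0.29, and the Smc3 acetyltransferase Esco2 at -0.17. Hdac8, which removes that acetyl mark, was higher at 0.21, a call lost without untreated 2 (0.14), without genistein 2 (0.15), with no filter and with DESeq2. The call of Esco2 was lost without untreated 1 (-0.15) and without genistein 1 (-0.08), and with library totals, factors from genes alone and DESeq2. Cdca5 (sororin) and Esco1 had log2 fold changes of -0.12 and -0.03 and did not pass, and Esco1 changed sign with library totals. Without genistein 2, and also with no filter, Cdca5 passed at -0.15.

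Of the 4 genes of protection and cleavage, 1 was lower and 2 were higher, again beside 38.2% and 33.5% of all genes. The gene for separase (Espl1) was lower at -0.44. Shugoshin 2 (Sgo2a) was higher at 0.26, and securin (Pttg1), the inhibitor of separase, at 0.12. The securin call was lost without untreated 2 (0.09), without genistein 1 (0.09), with no filter and with DESeq2. Sgo1 had -0.02, did not pass and changed sign with library totals.

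In the SMC5/6 complex, another SMC ring, which acts in DNA repair, 4 of 6 genes were lower and none higher, against 38.2% and 33.5% of all tested genes. These were Nsmce4a at -0.79, Nsmce3 at -0.75, Nsmce1 at -0.56 and Smc6 at -0.56, whereas Smc5, the ATPase partner of Smc6, had -0.02 and Nsmce2 had -0.03, both of which changed sign with library totals. Of the 3 genes in the list named condensin partners, whose tie to condensin was not examined, Smchd1 was lower at -0.40. Mcph1 and Kif4 had -0.08 and -0.04 and did not pass. Mcph1 passed with RLE factors and with no filter, and Kif4 changed sign with library totals. Of 4 meiotic cohesin genes, Smc1b, Rec8 and Rad21l had at most 1 count in a library and were not tested. Stag3 had 44.0 and 44.5 normalised counts without genistein and 72.2 and 62.8 with it (0.61, adjusted p = 0.0085, edgeR), a call lost without genistein 1 (0.51) and with DESeq2.

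**Figure D5:**
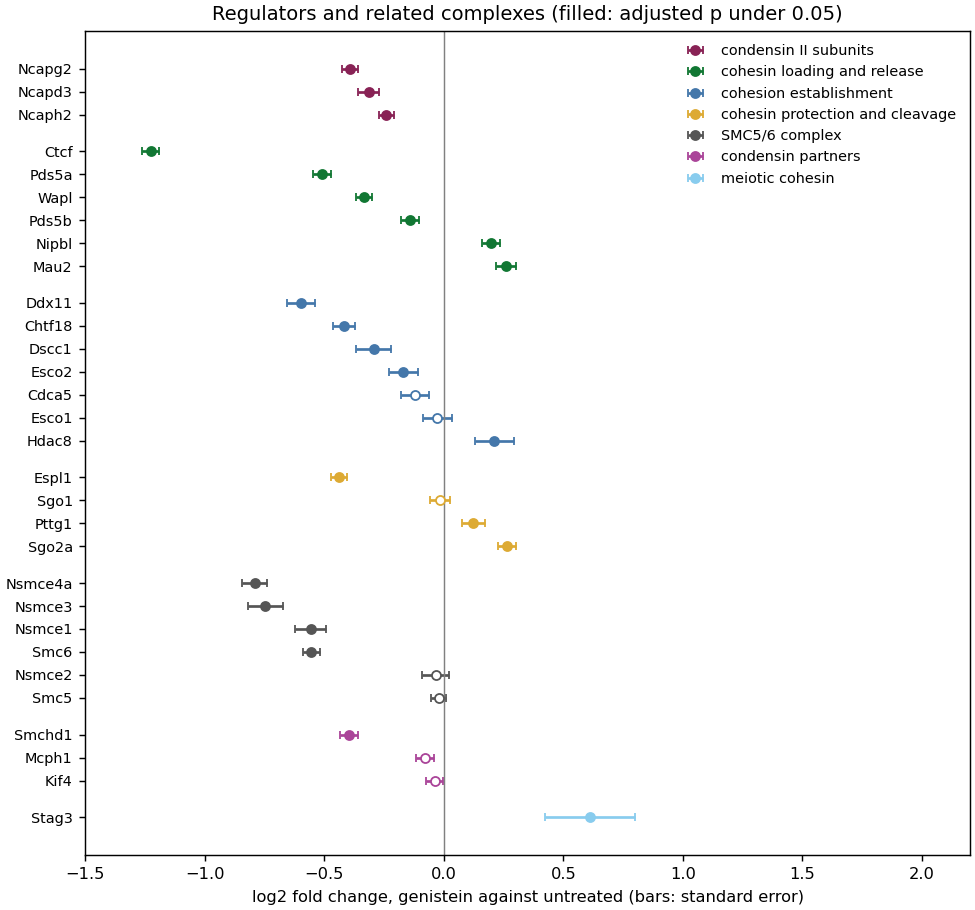
Log2 fold change with genistein of the 30 tested regulators and subunits of related complexes, grouped by list (bars are standard errors, filled points passed an adjusted p of 0.05). Ctcf at -1.23 is furthest left, and Nipbl, Mau2, Hdac8, Pttg1, Sgo2a and Stag3 are the filled points to the right of 0.

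Lists of cell cycle genes were set beside these genes. Of 21 G1/S genes, 20 were lower and E2f1 was higher, with a median log2 fold change of -0.57 and the lowest values for Ccne1 (-1.61) and Ccne2 (-1.41). Of 20 G2/M genes, 10 were lower, 5 higher and 5 neither, with a median of -0.10, running from Ccna2 at -0.79 to Nusap1 at 0.53. Among all tested genes 38.2% were lower and 33.5% higher. The medians of the cohesin and condensin genes lay between those of both lists. The part of the cell cycle in their change was not tested.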

How the data were processed

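Total RNA of 4 libraries was sequenced in paired ends after ribosomal RNA depletion. The authors used Trim Galore for trimming, STAR for alignment to mm10 and TEtranscripts for counting over Gencode genes and repeats. The deposited values are raw counts, 1 column per library. The strand option was not stated, so overlapping genes are uncertain. The table of 47937 genes and 1445 repeats was analysed, and 1 entry that names neither was left out (0.00208% to 0.00314% of a library). A symbol was found for 47224 of the gene identifiers. Coordinates and exon lengths are those of GENCODE on GRCm38, the assembly of mm10.

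filterByExpr kept 16240 genes and 1118 repeats. Counts were scaled by TMM and compared with the quasi-likelihood test of edgeR 4.0.16 (R 4.3.3), with Benjamini-Hochberg adjustment over the 17358 kept entries. A normalised count is the count over the effective library size, times the mean effective size. The standard error is the log2 fold change over the root of F. DESeq2 1.42.0 was an alternative. The fold rule (absolute log2 fold change over 1, mean over 100) follows the study's methods. The test was also run on counts simulated from the model it assumes, which is not a check of the calls given here. The genes and lists were chosen with earlier results of these data known. All 10 genes are named. Of the regulator lists the called genes could be named, otherwise up to 3 per direction by size of change, and of the cell cycle lists up to 2 per direction. Single cell type markers, overlapping genes and the ratios of Smc3 to Smc1a, Smc2 to Smc4 and condensin II to condensin I were chosen after their values were seen. The main fit did not pair libraries by replicate number. Deviations of same-numbered libraries correlated at -0.03, which cannot exclude a shared culture or batch. The chi-square of replicate counts per degree of freedom was 5.54 and 12.3, above sampling noise. With 2 libraries per group, precision rests on the spread between replicates pooled across genes.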

Additional observations from a re-analysis of the deposited data

How the results depend on the processing

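Over the 10 genes, the other settings tried were RLE size factors, library totals, factors from genes alone, no filter on low counts, DESeq2, a replicate block, and each library left out in turn, where a lone library was taken to vary like the other group. No gene changed direction under any of them, and only Stag2 and Ncaph changed side of the test, as given above. Members higher numbered 2 with library totals and 2 with factors from genes alone, in place of 1. Higher genes among all tested then numbered 6085 and 5867, in place of 5436. The median of the cohesin genes was -0.34 with RLE, -0.26 with library totals, -0.29 with factors from genes alone, -0.36 with no filter and -0.34 with DESeq2. That of the condensin genes was -0.25 with library totals, -0.28 with factors from genes alone and -0.35 with no filter. The median of all tested genes moved too, from -0.03 to 0.04 with library totals and 0.01 with factors from genes alone. It was -0.04 with RLE and with DESeq2, and 0.01 with no filter, where more genes were kept. The cause of the moves was not tested. With 1 library left out, the cohesin median ran from -0.35 to -0.33 and the condensin median from -0.35 to -0.30. The difference in the log2 ratio of summed condensin to cohesin was 0.20 on counts not divided by length, and 0.15 to 0.18 without each library. With the Scarna10 counts subtracted from Ncapd2, a setting chosen after seeing the data, it was 0.089, and that of condensin II to condensin I subunits was -0.23 in place of -0.34. With the replicate block 8 genes were lower and 1 higher, and the block changed no call among the 10. Among all tested genes 6131 were lower and 5336 higher with the block. With DESeq2, 16 regulators were lower and 3 higher, in place of 17 and 6. Among all tested genes 5309 were then lower and 4050 higher, in place of 6210 and 5436. Tested against the fold threshold itself, Stag1 still passed.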

Other observations

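Gene span was examined after the values were seen. The Stag1 locus spans 362 kb, the longest of the 10. Among 12213 tested protein-coding genes, those over 300 kb (279 genes) had log2 fold changes with a median of 0.41, and 61.3% of them were higher and 17.6% lower. Genes of up to 10 kb (2955 genes) had a median of -0.23, with 23.7% higher and 51.4% lower. Across genes the Spearman correlation of span with log2 fold change was 0.22, a description over genes that share 4 libraries. Over the 10 genes described here it was -0.39, on which no test was made. Among the 279 longest genes, 2 had a log2 fold change at or below that of Stag1. This share was 0.72%, against 3.25% of genes of up to 10 kb. It was 0.60% at 10 to 30 kb, 0.53% at 30 to 100 kb and 1.19% at 100 to 300 kb. The 2 long genes were Stag1 itself and Ntrk3, a neurotrophin receptor, named here because of its value. Ntrk3 had 50.9 and 46.6 normalised counts without genistein and 12.2 and 13.2 with it (log2 fold change -1.94 with a standard error of 0.27).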
